A study of Mus musculus with 24 samples.

Results

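These data compare the skin of mice injected with dihydrotestosterone (DHT) with the skin of control mice after 15 days. They hold 8 of the 24 libraries of a study of DHT and of a topical plant formula, 4 from control and 4 from DHT mice, each library from 1 mouse. The 4 control mice had saline injected every day and a solvent put on the skin. The 4 DHT mice, labelled as the model group, had DHT injected every day and the same solvent put on the skin. Strain, sex, age, dose and the site of the skin sample are not given in the sources used here. Poly(A) RNA of whole skin was sequenced, and expression is given as FPKM, which divides the fragments of a gene by its length and by the sequenced total. Tested genes reached 1 FPKM or more in 4 or more of the 24 libraries, which left 13039 of 18892. Differences are DHT minus control in log2(FPKM + 1), and their standard errors (SE) come from a limma fit to all 24 libraries. A gene is called, and said to have risen or fallen, where the p-value adjusted over all 13039 genes by the Benjamini-Hochberg method is under 0.05.

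DHT is made from testosterone by 5-alpha reductase enzymes and acts through a nuclear receptor that works as a transcription factor. In skin androgens act on dermal papilla cells at the base of the hair follicle, on sebaceous glands and on dermal fibroblasts. The follicle passes through growth, regression and rest. In growth, matrix cells above the papilla form the hair shaft, built of hair keratins and the keratin-associated proteins that surround them, and the inner root sheath that moulds it. Injected androgen is widely used in mice to delay or shorten hair growth.

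The 8 libraries had similar depth, from 37154004 to 40956937 reads per library as recovered from the steps of the FPKM values. Their FPKM totals ran from 419207 to 441287, and 16603 to 16721 genes were above 0. The control libraries correlated with each other across genes at 0.9842 or more. Among the DHT libraries the lowest value was 0.9428, between replicates 2 and 3. On the first principal component (53.4% of the variance) DHT replicate 3 stood apart at 51.5, with the other 7 libraries between -31 and 13. On the second (23.6%) DHT replicate 2 stood at -38, with the others between -4.1 and 15.4. The number of called genes rests on these libraries. It was 1408 in all, and it was 1345, 500, 369 and 363 without control replicates 1 to 4 and 2240, 501, 500 and 1211 without DHT replicates 1 to 4. With only the 8 libraries setting the spread it was 724. Without both DHT replicates 2 and 3, an alternative chosen after seeing the data, 12 genes were called. Among them, named after their values were seen, were Ezr, Fyb2, Hamp2, Krt90, Mlph, Serpina3b, Serpinb6e, Sprr2h and Tuba1c. Of the 1408 genes 0 changed sign in any fit that left out 1 library. In 1156 of them the groups did not overlap, so leaving out a mouse could not change the sign. The others had been selected as called with these same mice. In all 8 of these fits 263 genes were called (96 higher and 167 lower in DHT skin).

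DHT changed 10.8% of the tested genes at day 15. Of these 552 rose (4.23%) and 856 fell (6.56%), 79 and 62 of them by over 2-fold. The median difference over all tested genes was -0.03 and the median SE 0.11, and 44.2% of all differences were positive. In 20.2% of the tested genes the 4 DHT libraries did not overlap the 4 control libraries, with 7.89% higher and 12.3% lower in DHT skin. Among the called genes 1156 of 1408 had no overlap. Scaling every library to a common total moved the split to 743 higher and 473 lower, so the direction of small differences depends on the scale. The plot of differences against p-values shows the largest rises in a few secreted proteins and the most certain falls in 2 serpins and a cornified envelope gene.

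**Figure D1:**
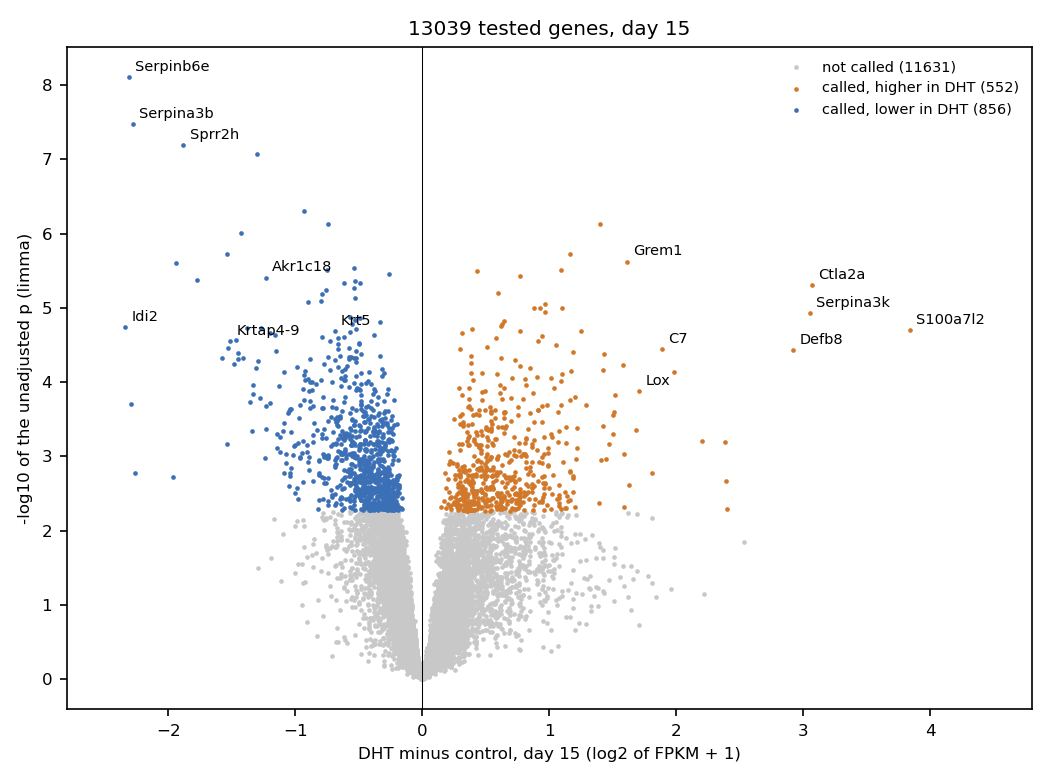
Each point is 1 of the 13039 tested genes. The horizontal axis gives DHT minus control at day 15 in log2(FPKM + 1), the vertical axis -log10 of the unadjusted limma p, with 552 called genes higher (orange) and 856 lower (blue) in DHT skin. S100a7l2 lies farthest right at 3.84, and Serpinb6e is highest on the left at -2.31.

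The largest rise was in S100a7l2, a member of the S100 family of calcium-binding proteins, whose psoriasin group acts against bacteria at the skin surface. It was at 8.06, 14.5, 10 and 19.2 FPKM in the control mice and 112, 489, 107 and 216 in the DHT mice (log2 difference 3.84, SE 0.70, adjusted p = 0.00496). Every DHT mouse was above every control mouse, with DHT replicate values spread more widely than those of the controls. Ctla2a, a cysteine protease inhibitor of the cathepsin propeptide kind, was at 54.5, 60.7, 39.4 and 71.8 FPKM in the control mice and 566, 689, 313 and 409 in the DHT mice (log2 difference 3.07, SE 0.50, adjusted p = 0.00266). Its groups stood far apart, with the lowest DHT mouse above the highest control. Serpina3k, a serine protease inhibitor, was at 0.468, 0.195, 0.761 and 1.47 FPKM in the control mice and 6.91, 36.5, 9.36 and 10.8 in the DHT mice (log2 difference 3.05, SE 0.53, adjusted p = 0.00411). In 3 of the 4 control mice it was under 1 FPKM. Defb8, a beta-defensin, was at 53.3, 146, 67.5 and 66.6 FPKM in the control mice and 404, 1269, 377 and 622 in the DHT mice (log2 difference 2.92, SE 0.56, adjusted p = 0.00614). Lox encodes lysyl oxidase, which crosslinks collagen and elastin, and it was at 38.5, 30.5, 36.7 and 48.1 FPKM in the control mice and 134, 133, 124 and 115 in the DHT mice (log2 difference 1.71, SE 0.36, adjusted p = 0.00987). The 4 DHT mice lay closer together for Lox than for S100a7l2, Ctla2a, Serpina3k or Defb8. Grem1, a secreted antagonist of bone morphogenetic proteins (BMPs), was at 4.12, 2.94, 2.48 and 3.79 FPKM in the control mice and 12.3, 18.3, 9.33 and 9.85 in the DHT mice (log2 difference 1.61, SE 0.25, adjusted p = 0.00264). C7, a complement protein of the membrane attack complex, was at 35.1, 48.1, 46.4 and 45.6 FPKM in the control mice and 118, 314, 120.1 and 160 in the DHT mice (log2 difference 1.89, SE 0.36, adjusted p = 0.00604). Grem1 and C7 were both highest in DHT replicate 2, and the groups did not overlap in either. S100a7l2, Ctla2a, Serpina3k, Defb8, Lox, Grem1 and C7 stayed called with each of the 8 libraries left out in turn.

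Other rises among the 20 largest were spread over several functions, and in each of them the groups did not overlap, as the naming rule required. Wfdc12, a small antibacterial protein with a whey acidic protein domain, was at 3.16, 3.3, 2.75 and 2.63 FPKM in the control mice and 17.9, 15.6, 14.8 and 10.9 in the DHT mice (log2 difference 1.98, SE 0.40, adjusted p = 0.00777). Inmt, a methyltransferase that acts on indoles, rose from 13.3 ± 1.19 to 45.9 ± 22.8 FPKM (SD, n = 4; log2 difference 1.58, SE 0.31, adjusted p = 0.00726). Cyp7b1, an enzyme that hydroxylates oxysterols and steroids, was at 2.48, 2.21, 1.37 and 2.14 FPKM in the control mice and 6.59, 7.96, 17.2 and 6.11 in the DHT mice (log2 difference 1.68, SE 0.40, adjusted p = 0.0164). Sult1e1, the estrogen sulfotransferase, was at 4.79, 5.25, 6.43 and 4.72 FPKM in the control mice and 7.2, 83.8, 8.41 and 18.1 in the DHT mice (log2 difference 1.59, SE 0.50, adjusted p = 0.0476). DHT replicate 2 was far above the other 3 DHT mice, and replicate 1 was little above the highest control. Clec4n, a lectin receptor of myeloid cells, rose from 11 ± 4.77 to 37.5 ± 21.6 FPKM (SD, n = 4), and Pglyrp1, a peptidoglycan recognition protein, from 1.25 ± 0.504 to 6.39 ± 5.07 FPKM. Gal, the neuropeptide galanin, was at 2.63, 1.33, 2.16 and 1.04 FPKM in the control mice and 8.3, 8.23, 3.47 and 8.17 in the DHT mice. DHT replicate 3 was below the other 3 DHT mice, which lay close together. Selp, the adhesion molecule P-selectin of endothelium and platelets, was at 4.42, 2.54, 2.55 and 3.72 FPKM in the control mice and 10.3, 6.95, 29.8 and 6.58 in the DHT mice, and Col6a5, a chain of collagen VI, at 0.27, 0.255, 0.599 and 0.44 FPKM in the control mice and 1.02, 1.1, 10.2 and 3.98 in the DHT mice. Both were highest in DHT replicate 3, and no control mouse reached the lowest DHT value. Wfdc12, Inmt, Pglyrp1, Selp and Col6a5 passed whichever of the 8 libraries was left out. Without at least 1 of control replicates 1, 2, 3 and 4 and DHT replicates 2, 3 and 4 the calls of Cyp7b1, Sult1e1, Clec4n and Gal ended (adjusted p up to 0.13). Sult1e1, Clec4n, Pglyrp1, Selp and Col6a5 did not pass where the 8 libraries alone set the spread (adjusted p up to 0.16).

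The largest falls took genes of isoprenoid synthesis, the serpin clusters and the hair shaft. Idi2, an isopentenyl diphosphate isomerase, was at 4.86, 3.33, 5.36 and 7.29 FPKM in the control mice and 0.0706, 0.24, 0.425 and 0.0904 in the DHT mice (log2 difference -2.34, SE 0.42, adjusted p = 0.00496). The DHT values were close to 0 in all 4 mice. Serpinb6e, an intracellular serpin, was at 7.34, 4.23, 3.63 and 4.67 FPKM in the control mice and 0.217, 0.307, 0.124 and 0.0482 in the DHT mice (log2 difference -2.31, SE 0.25, adjusted p = 0.000102), and its neighbour in the same cluster Serpinb6d at 3.72, 8.51, 16.3 and 3.48 FPKM in the control mice and 0.36, 0.899, 0.2 and 0.985 in the DHT mice (log2 difference -2.29, SE 0.51, adjusted p = 0.0123). All 4 DHT mice were under 1 FPKM in both genes, and all control mice above it. Serpina3b was at 54.6, 39.3, 53.9 and 38.9 FPKM in the control mice and 9.94, 15.8, 5.2 and 6.81 in the DHT mice (log2 difference -2.28, SE 0.27, adjusted p = 0.000221). It fell while its relative Serpina3k rose. Sprr2h, a small proline-rich protein of the cornified envelope, was at 42.6, 41.1, 32.7 and 54.4 FPKM in the control mice and 8.77, 9.02, 16.7 and 9.74 in the DHT mice (log2 difference -1.88, SE 0.23, adjusted p = 0.000277), and Lce3c, a late cornified envelope protein, at 4.51, 4.34, 4.65 and 7.03 FPKM in the control mice and 1.31, 0.859, 1.13 and 0.854 in the DHT mice (log2 difference -1.58, SE 0.31, adjusted p = 0.00646). Nnat, a small membrane proteolipid from a paternally expressed gene, was at 23.1, 31.1, 19.1 and 15 FPKM in the control mice and 2.61, 11.8, 1.13 and 3.9 in the DHT mice (log2 difference -2.26, SE 0.63, adjusted p = 0.03). Mup20, the major urinary protein darcin, was at 4.59, 5.01, 3.42 and 1.28 FPKM in the control mice and 0, 0.245, 0 and 0.18 in the DHT mice (log2 difference -1.96, SE 0.55, adjusted p = 0.031). It is a near copy of other Mup genes, so its reads may be shared with them. Akr1c18, the 20-alpha-hydroxysteroid dehydrogenase that inactivates progesterone, was at 10.4, 10.5, 7.56 and 10.2 FPKM in the control mice and 2.6, 2.47, 4.62 and 4.84 in the DHT mice (log2 difference -1.23, SE 0.20, adjusted p = 0.00266). In all 8 fits with 1 library left out, Idi2, Serpinb6e, Serpinb6d, Serpina3b, Sprr2h, Lce3c and Akr1c18 passed. Dropping at least 1 of control replicates 1, 2, 3 and 4 and DHT replicates 2 and 3 ended the calls of Nnat and Mup20 (adjusted p up to 0.1).

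**Figure D2:**
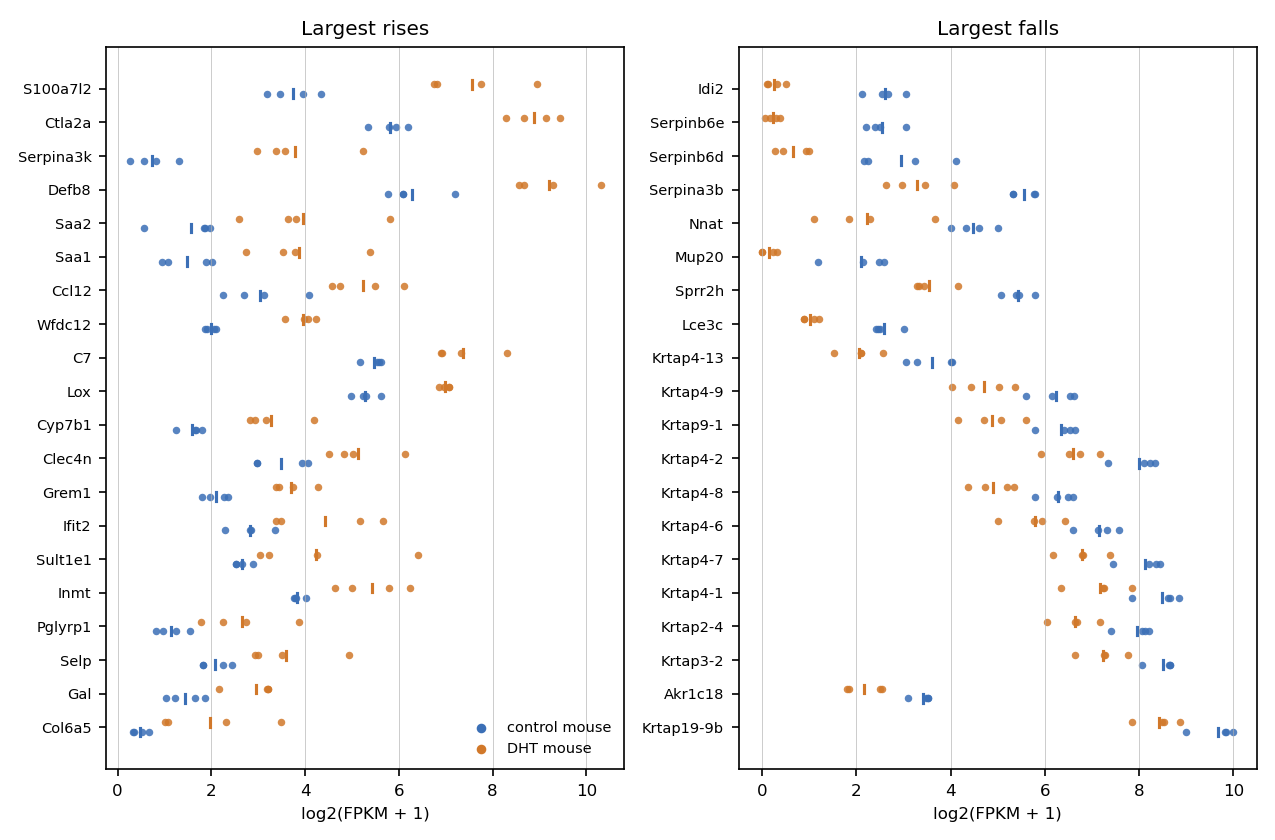
Each point is 1 mouse, on a horizontal axis of log2(FPKM + 1), with control mice in blue, DHT mice in orange and the group mean of 4 as a short line. The left panel holds the 20 largest rises and the right panel the 20 largest falls, chosen among genes whose groups do not overlap. Of the right panel, 11 genes are keratin-associated proteins.

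Keratin-associated protein genes of the hair fiber were lower in DHT skin. Of 55 tested keratin-associated protein genes, which encode the sulfur-rich matrix between hair keratins, 28 fell and 0 rose, against 6.56% of all genes that fell, and their median difference was -0.96 against -0.03. The count ran from 15 to 36 with 1 library left out, moving by over 1.5 times without control replicates 2 and 4 and DHT replicate 2, and was 25 with the spread of the 8 libraries alone. Without both DHT replicates 2 and 3 it was 0. In bulk skin, fewer hair-forming cells and less RNA per cell cannot be told apart. The summed level of the list was 24567 to 33019.7 FPKM in the control and 10150.1 to 19864 FPKM in the DHT mice, and the mean of the list, relative to the control mean, was -0.33, -1.50, -1.03 and -0.60 in DHT replicates 1 to 4. All 4 DHT mice were below the lowest control mouse, with replicate 2 the lowest and replicate 1 the least changed. Krtap4-9 was at 92.2, 70.5, 47.3 and 97.6 FPKM in the control mice and 40.3, 15.4, 31.6 and 20.7 in the DHT mice (log2 difference -1.51, SE 0.28, adjusted p = 0.00543), and Krtap3-2 at 402, 398, 268 and 404 FPKM in the control mice and 217, 99, 154 and 151 in the DHT mice (log2 difference -1.27, SE 0.23, adjusted p = 0.00496). Krtap9-1, at 99.3, 83.8, 54 and 91.7 FPKM in the control mice and 47.5, 16.9, 32.8 and 25.1 in the DHT mice, and Krtap2-4, at 293, 267, 168 and 277 FPKM in the control mice and 143, 64.8, 102 and 99.3 in the DHT mice, had the same order of DHT mice, lowest in replicate 2. Members of the Krtap4 group are near copies, so the reads of single members are uncertain and the 8 called members are better read as a group. Krtap15 (log2 difference -1.07, SE 0.28, adjusted p = 0.0222) and Krtap8-1, of the glycine- and tyrosine-rich kind (log2 difference -0.96, SE 0.25, adjusted p = 0.0233), fell in the same list. Krtap4-9, Krtap3-2, Krtap9-1 and Krtap2-4 stayed called with each of the 8 libraries left out in turn. The calls of Krtap15 and Krtap8-1 ended without at least 1 of control replicates 2, 3 and 4 and DHT replicates 2 and 3 (adjusted p up to 0.076).

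Of 16 hair shaft keratins, the filament proteins of the fiber, 3 fell and 0 rose, against 6.56% and 4.23% of all tested genes. The falls were in Krt34, Krt39 and Krt86, the median was -0.60 and all 16 differences were negative. With 1 library left out the count was 0 to 4, moving by over 1.5 times without control replicates 2, 3 and 4 and DHT replicates 2 and 3, and the spread of the 8 libraries alone gave 4. Krt39 was at 51.8, 49.6, 37.4 and 53.6 FPKM in the control mice and 32.8, 15.7, 22.5 and 23.6 in the DHT mice (log2 difference -1.03, SE 0.25, adjusted p = 0.0165), with DHT replicate 1 nearest to the controls. The abundant shaft keratins Krt33b (log2 difference -0.70, adjusted p = 0.0806), Krt81 (log2 difference -0.71, adjusted p = 0.0884) and Krt85 (log2 difference -0.47, adjusted p = 0.0943) were lower without passing. The inner root sheath, the layer around the growing shaft, had 9 of 10 genes that fell and a median of -0.76. Fits that left out 1 library called 1 to 10, moving by over 1.5 times without control replicates 2, 3 and 4 and DHT replicates 2 and 3, and a fit of the 8 libraries by themselves called 6. Krt72, a type II keratin of the sheath, was at 522, 606, 594 and 683 FPKM in the control mice and 379, 238, 286 and 281 in the DHT mice (log2 difference -1.03, SE 0.23, adjusted p = 0.013). Tchh encodes trichohyalin, the granule protein of the sheath, and fell (-0.81, SE 0.22). Padi3 and Padi1, peptidylarginine deiminases that modify trichohyalin, fell (-0.72, SE 0.18 and -0.91, SE 0.23). The other gene, Krt25, was lower without passing (log2 difference -0.44, adjusted p = 0.0819). Of 13 transcription factors of the hair matrix 5 fell, namely Msx2, Dlx2, Dlx3, Foxq1 and Ovol1. The count ran from 1 to 9 with 1 library left out, moving by over 1.5 times without control replicates 2, 3 and 4 and DHT replicates 1, 2 and 3, and was 2 with the spread of the 8 libraries alone. Dlx2, a homeobox factor, was at 6.18, 8.65, 9.09 and 7.84 FPKM in the control mice and 4, 3.48, 3.21 and 5.04 in the DHT mice (log2 difference -0.86, SE 0.19, adjusted p = 0.0126). Foxn1, whose loss causes the nude phenotype, was lower without passing (log2 difference -0.53, adjusted p = 0.0792), as was Hoxc13, a regulator of hair keratin genes (log2 difference -0.55, adjusted p = 0.0669). No single library, left out, ended the call of Krt72 and Dlx2. Krt34, Krt39, Krt86, Tchh, Padi3, Padi1, Msx2, Dlx3, Foxq1 and Ovol1 did not pass without at least 1 of control replicates 2, 3 and 4 and DHT replicates 2 and 3 (adjusted p up to 0.1). Msx2, Dlx3, Foxq1 and Ovol1 did not pass where the 8 libraries alone set the spread (adjusted p up to 0.062).

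Among signals that act between the papilla and the hair epithelium, some genes rose and others fell. In the BMP pathway, which restrains the start of hair growth, 2 of 20 genes rose and 6 fell (median -0.29), against 4.23% and 6.56% of all tested genes. The antagonist Grem1 rose as given above, and Bmp1, a protease that processes procollagen rather than a BMP ligand, rose by 0.59 (SE 0.19). The ligands Bmp2 (-0.66, SE 0.17), Bmp3 (-0.44, SE 0.13), Bmp6 (-0.44, SE 0.12) and Bmp7 (-0.37, SE 0.12) fell, as did the inhibitors Bambi (-0.53, SE 0.17) and Smad7 (-0.63, SE 0.19). With 1 library left out the count was 0 to 5, moving by over 1.5 times without control replicates 2, 3 and 4 and DHT replicates 2 and 3, and the spread of the 8 libraries alone gave 2. Of 14 fibroblast growth factor pathway genes, which include Spry1, Spry2, Spry4 and Dusp6 beside ligands and receptors, 2 fell. Fgf5, the signal that ends hair growth, was at 8.87, 6.81, 7.22 and 8.02 FPKM in the control mice and 5.4, 2.77, 3.05 and 4.13 in the DHT mice (log2 difference -0.88, SE 0.20, adjusted p = 0.0129). Fgf22 was at 15.6, 18.3, 20.8 and 18.5 FPKM in the control mice and 13, 7.31, 8.6 and 12.4 in the DHT mice (log2 difference -0.79, SE 0.18, adjusted p = 0.0129). DHT and control values did not overlap for either gene. Fgf7, a growth factor from the papilla and dermis, was higher without passing (log2 difference 0.77, adjusted p = 0.0569). In all 8 fits with 1 library left out, Grem1, Fgf5 and Fgf22 passed. Dropping at least 1 of control replicates 1, 2, 3 and 4 and DHT replicates 1, 2, 3 and 4 ended the calls of Bmp1, Bmp2, Bmp3, Bmp6, Bmp7, Bambi and Smad7 (adjusted p up to 0.15). A fit of the 8 libraries by themselves did not call Bmp3, Bmp6, Bmp7 and Bambi (adjusted p up to 0.086).

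Of 43 Wnt pathway genes 6 fell and 0 rose, against 6.56% and 4.23% of all tested genes, with a median of -0.30. They were the ligand Wnt4, the receptors Fzd1, Fzd6 and Fzd10, the transcription factor Tcf7 and Rnf43, a ligase that removes Frizzled receptors. Their differences ran from -0.49 (Wnt4) to -0.41 (Fzd1). Fits that left out 1 library called 0 to 14, moving by over 1.5 times without control replicates 2, 3 and 4 and DHT replicates 1, 2 and 3, and a fit of the 8 libraries by themselves called 1. With a common total per library it was 2. Sfrp2, a secreted Wnt antagonist, was higher without passing (log2 difference 1.15, adjusted p = 0.0531). Of 12 Hedgehog pathway genes limma called 0 (3 at an unadjusted p under 0.05) and voom 0, and the ligand Shh came nearest (log2 difference -0.39, adjusted p = 0.0521). Among 13 bulge stem cell genes Sox9, a factor of the outer root sheath and bulge, fell from 19.1 ± 1.22 to 11.8 ± 2.95 FPKM (SD, n = 4). Of 15 dermal papilla genes Tbx18 rose (0.49, SE 0.13) and Corin, a protease of the papilla, fell (-0.46, SE 0.13). In the transforming growth factor beta pathway 3 of 18 genes rose, the ligand Tgfb3 (0.51, SE 0.14) and the receptors Tgfbr2 (0.73, SE 0.22) and Tgfbr3 (0.72, SE 0.19), and Ltbp4, which binds the latent ligand, fell (-0.35, SE 0.09). Of 14 genes of the insulin-like growth factor axis the binding proteins Igfbp3 (-0.45) and Igfbp5 (-0.53) fell. The groups overlapped in both genes, and the list had 7 positive and 7 negative differences with a median of 0.01. In 3 of the 14 the DHT mice were all above the control mice, against 7.89% of all tested genes. The calls of Wnt4, Fzd1, Fzd6, Fzd10, Tcf7, Rnf43, Sox9, Tbx18, Corin, Tgfb3, Tgfbr2, Tgfbr3, Ltbp4, Igfbp3 and Igfbp5 ended without at least 1 of control replicates 1, 2, 3 and 4 and DHT replicates 2, 3 and 4 (adjusted p up to 0.14). With the spread taken from these 8 libraries alone, Wnt4, Fzd1, Fzd6, Fzd10, Tcf7, Rnf43, Corin, Tgfb3, Ltbp4, Igfbp3 and Igfbp5 did not pass (adjusted p up to 0.13).

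Genes of epidermal cell contact were lower in DHT skin. Of 15 desmosome and tight junction genes 11 fell and 0 rose, against 6.56% and 4.23% of all tested genes, with a median of -0.51. In 13 of 15 the groups did not overlap, against 12.3% of all tested genes. The count ran from 3 to 14 with 1 library left out, moving by over 1.5 times without control replicates 2, 3 and 4 and DHT replicates 2 and 3, and was 2 with the spread of the 8 libraries alone. With a common total it was 7. Jup, the desmosomal plaque protein plakoglobin, was at 88.3, 98.1, 114 and 105 FPKM in the control mice and 84.9, 62.7, 59.8 and 83.9 in the DHT mice (log2 difference -0.48, SE 0.11, adjusted p = 0.0117). Pkp3, plakophilin 3, was at 111, 124, 134 and 127 FPKM in the control mice and 100.5, 61.5, 71.4 and 91.9 in the DHT mice (log2 difference -0.62, SE 0.13, adjusted p = 0.00861), and Dsg2, a desmosomal cadherin, at 10.8, 11.3, 12.1 and 13 FPKM in the control mice and 10.1, 6.52, 6.76 and 8.67 in the DHT mice (log2 difference -0.52, SE 0.12, adjusted p = 0.013). In these genes DHT replicates 2 and 3 were at or near the lowest values. The other falls were in the cadherins Dsg3, Dsc2, Dsc3 and Cdh1, the plaque protein Dsp, the membrane protein Perp and the claudins Cldn1 and Cldn4, from -0.77 (Dsc2) to -0.43 (Perp). Dsg4, the desmoglein of the hair shaft, did not pass (log2 difference -0.66, adjusted p = 0.0523). Jup, Pkp3 and Dsg2 passed whichever of the 8 libraries was left out. Without at least 1 of control replicates 1, 2, 3 and 4 and DHT replicates 2 and 3 the calls of Dsg3, Dsc2, Dsc3, Cdh1, Dsp, Perp, Cldn1 and Cldn4 ended (adjusted p up to 0.12). Jup, Pkp3, Dsg2, Dsg3, Dsc2, Dsc3, Cdh1, Dsp, Perp and Cldn1 did not pass where the 8 libraries alone set the spread (adjusted p up to 0.085).

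Of 16 genes of the basal layer 3 fell, the basal keratins Krt5 and Krt14 and the transcription factor Trp63. Krt5 was at 731, 689, 728 and 783 FPKM in the control mice and 583, 425, 336 and 501 in the DHT mice (log2 difference -0.69, SE 0.13, adjusted p = 0.00496), and Krt14 at 604, 550.4, 540.5 and 600.1 FPKM in the control mice and 445, 377, 257 and 380.1 in the DHT mice (log2 difference -0.68, SE 0.16, adjusted p = 0.0151). Both keratins were lowest in DHT replicate 3. Among keratins of stressed or follicular epidermis Krt6a, at 149, 145, 139 and 185 FPKM in the control mice and 93.1, 75.8, 78.2 and 75.1 in the DHT mice (log2 difference -0.93, SE 0.19, adjusted p = 0.008), and Krt17 (log2 difference -0.66, SE 0.13, adjusted p = 0.00604) fell, while Krt6b (log2 difference 0.58, adjusted p = 0.457) and Krt16 (log2 difference -0.39, adjusted p = 0.544) did not pass. Of 33 epidermal differentiation genes 11 fell and 0 rose, against 6.56% and 4.23% of all tested genes, with a median of -0.36. With 1 library left out the count was 4 to 16, moving by over 1.5 times without control replicates 2, 3 and 4 and DHT replicates 2 and 3, and the spread of the 8 libraries alone gave 5. Asprv1, the protease that processes filaggrin, was at 250, 276, 266 and 281 FPKM in the control mice and 199, 158, 156 and 172 in the DHT mice (log2 difference -0.65, SE 0.13, adjusted p = 0.00646). Abca12, the lipid transporter of lamellar granules, was at 10.7, 10.1, 11.3 and 12.6 FPKM in the control mice and 8.06, 7.47, 5.93 and 7.24 in the DHT mice (log2 difference -0.58, SE 0.11, adjusted p = 0.00646). Ivl (involucrin), the transglutaminases Tgm1, Tgm3 and Tgm5, Krt80, Klk7, Cdsn (corneodesmosin), Pkp1 and Calml3 fell, with log2 differences from -0.78 (Tgm3) to -0.46 (Klk7). Of 25 cornified envelope precursors 8 fell. Beside Sprr2h and Lce3c these were Crct1, Lce3d, Lce6a, Sprr1a, Sprr1b and Sprr2f, while the median of the list was 0.18. Fits that left out 1 library called 4 to 9, moving by over 1.5 times without control replicates 2 and 4 and DHT replicates 2 and 3, and a fit of the 8 libraries by themselves called 6. In this list 13 of 25 differences were positive. In all 8 fits with 1 library left out, Krt5, Krt6a, Krt17, Asprv1, Abca12, Krt80, Calml3, Crct1 and Sprr2f passed. Dropping at least 1 of control replicates 1, 2, 3 and 4 and DHT replicates 2, 3 and 4 ended the calls of Krt14, Trp63, Ivl, Tgm1, Tgm3, Tgm5, Klk7, Cdsn, Pkp1, Lce3d, Lce6a, Sprr1a and Sprr1b (adjusted p up to 0.16). A fit of the 8 libraries by themselves did not call Trp63, Tgm1, Tgm5, Krt80, Klk7, Cdsn, Pkp1, Lce3d, Lce6a and Sprr1a (adjusted p up to 0.15).

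Within the lists of collagens, elastic fibers, proteoglycans and matrix glycoproteins every called gene rose, while Ltbp4, given above in another list, fell. Of 29 collagen genes 4 rose and 0 fell, against 4.23% and 6.56% of all tested genes, with a median of 0.27. Col3a1, the chain of collagen III, was at 1299.9, 1126, 1439 and 1415 FPKM in the control mice and 2668, 3904, 2463 and 2557 in the DHT mice (log2 difference 1.11, SE 0.30, adjusted p = 0.0248). DHT replicate 2 was far above the other DHT mice in this gene. Col5a2, which sets the diameter of collagen fibrils, was at 58.3, 48.7, 54.2 and 54.1 FPKM in the control mice and 101, 144, 108 and 109 in the DHT mice (log2 difference 1.07, SE 0.24, adjusted p = 0.0132). Col6a6 rose by 0.70 (SE 0.15) and Col6a5 as given above, both chains of collagen VI. Col1a1, the main chain of collagen I, was higher without passing (log2 difference 0.86, adjusted p = 0.0719). Of 18 genes of lysyl oxidases and elastic fibers 3 rose, Lox, Loxl3 (0.76, SE 0.24) and the fibulin Fbln1 (0.55, SE 0.16). In 12 of the 18 the DHT mice were all above the control mice, against 7.89% of all tested genes. Eln, elastin itself, was higher without passing (log2 difference 0.78, adjusted p = 0.0571). Of 11 small leucine-rich proteoglycans Dcn, decorin, rose from 851 ± 72.5 to 1364 ± 260.3 FPKM (SD, n = 4), and of 22 matrix glycoprotein genes Has2, a hyaluronan synthase, rose (0.65, SE 0.21). Col5a2, Col6a6, Col6a5 and Lox stayed called with each of the 8 libraries left out in turn. The calls of Col3a1, Loxl3, Fbln1, Dcn and Has2 ended without at least 1 of control replicates 1, 2, 3 and 4 and DHT replicates 2, 3 and 4 (adjusted p up to 0.16). With the spread taken from these 8 libraries alone, Col6a5, Loxl3, Fbln1 and Has2 did not pass (adjusted p up to 0.12).

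Of 30 metalloproteinases and their inhibitors 6 rose and 0 fell, against 4.23% and 6.56% of all tested genes, with a median of 0.50. Adamts2, which removes the propeptide of procollagen, was at 32.7, 31.7, 33.5 and 33.4 FPKM in the control mice and 68.8, 72.6, 50 and 56 in the DHT mice (log2 difference 0.88, SE 0.28, adjusted p = 0.0467), and Mmp14, a membrane-bound collagenase, at 92.8, 78.3, 81.5 and 74.3 FPKM in the control mice and 121, 166, 130 and 129.5 in the DHT mice (log2 difference 0.73, SE 0.20, adjusted p = 0.0294). Adamts9, Adamts10, Adamts12 and Mmp27 rose by 0.35 (Adamts10) to 0.56 (Adamts12). The count ran from 0 to 4 with 1 library left out, moving by over 1.5 times without control replicates 1, 2, 3 and 4 and DHT replicates 2, 3 and 4, and was 5 with the spread of the 8 libraries alone. Without a filter on low values 1 passed, and Adamts2 passed in 0 of the 8 fits that left out a library. Among 15 fibroblast markers the receptor Pdgfrb rose (0.61, SE 0.19; called in 0 of the 8 fits that left out a library) and Pdgfra did not pass (log2 difference 0.73, adjusted p = 0.0539). The summed level of the list was 5011 to 5893 FPKM in the control and 8095 to 13727 FPKM in the DHT mice, but it includes Col1a1, Col1a2 and Col3a1, collagens counted above. Of the 15 markers 10 had positive differences and 5 negative, and the list mean was 0.21 to 0.48 in the DHT mice, against -0.06 to 0.15 in the control mice. Genes of an endothelial list, 23 tested, all had positive differences with a median of 0.38, and 3 rose. The list was drawn up broadly, with the growth factor Vegfa, adhesion molecules such as Vcam1 and Selp, and Lyve1, also counted among the macrophage markers. Vwf encodes von Willebrand factor and was at 2.7, 3.18, 4.09 and 3.15 FPKM in the control mice and 5.81, 6.76, 4.86 and 5.4 in the DHT mice (log2 difference 0.65, SE 0.16, adjusted p = 0.0161), Vcam1, an adhesion molecule for leukocytes, rose by 1.16 (SE 0.36), and Selp as given above. The endothelial list summed to 214 to 226 FPKM in the control and 282 to 435 FPKM in the DHT mice, without overlap. The part of such cell types in the matrix values was not tested. No single library, left out, ended the call of Selp. Adamts2, Mmp14, Adamts9, Adamts10, Adamts12, Mmp27, Pdgfrb, Vwf and Vcam1 did not pass without at least 1 of control replicates 1, 2, 3 and 4 and DHT replicates 1, 2, 3 and 4 (adjusted p up to 0.17). Adamts9, Adamts12, Mmp27 and Selp did not pass where the 8 libraries alone set the spread (adjusted p up to 0.086).

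**Figure D3:**
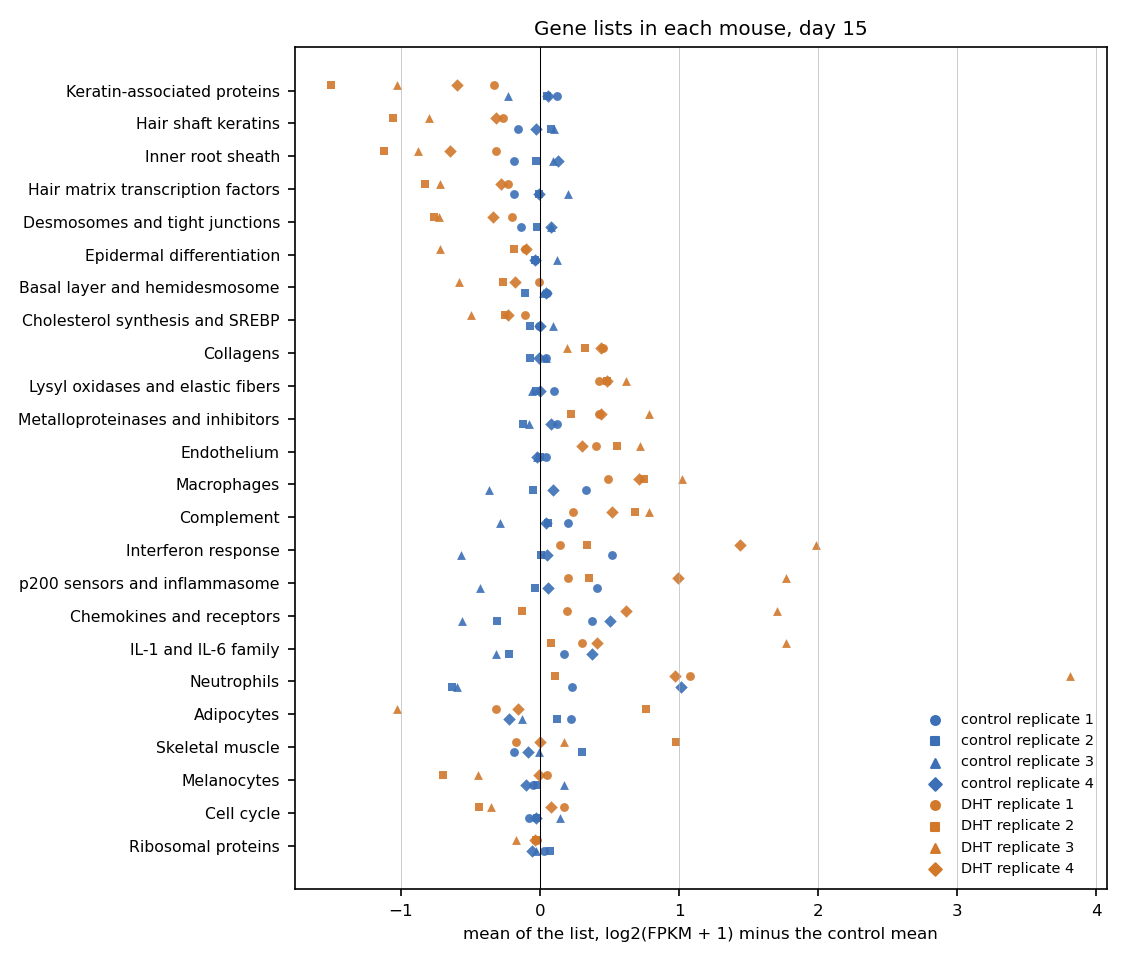
Each point is the mean of the tested members of 1 gene list in 1 mouse, on a horizontal axis of log2(FPKM + 1) minus the mean of the 4 control mice. Control mice are blue and DHT mice orange, and the marker shape gives the replicate number, which does not pair mice across groups. Keratin-associated proteins lie at -0.33 to -1.50 in all 4 DHT mice, while the neutrophil list lies at 3.81 in DHT replicate 3 and at 0.11 to 1.08 in the other 3.

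Macrophage markers as a list were higher in DHT skin, while the means of the chemokine, antigen presentation, mast cell, T cell and B cell lists overlapped between the groups. Of 22 macrophage markers 6 rose and 0 fell, against 4.23% and 6.56% of all tested genes, 21 differences were positive and the median was 0.76. The list summed to 861 to 1311 FPKM in the control and 1504 to 2461 FPKM in the DHT mice, and its mean was 0.49, 0.75, 1.02 and 0.71 in DHT replicates 1 to 4, against -0.37 to 0.33 in the control mice. Every DHT mouse was above every control mouse. Cd163, a scavenger receptor of resident macrophages, was at 34.4, 26.4, 24.9 and 29.9 FPKM in the control mice and 67.4, 105, 43.7 and 58.7 in the DHT mice (log2 difference 1.16, SE 0.25, adjusted p = 0.0114). F13a1, a transglutaminase chain made by such macrophages, was at 83.3, 64.2, 70.1 and 76.8 FPKM in the control mice and 111, 172, 132 and 113 in the DHT mice (log2 difference 0.82, SE 0.17, adjusted p = 0.00924). Mrc1, the mannose receptor, rose from 56.3 ± 8.17 to 102 ± 15 FPKM (SD, n = 4; log2 difference 0.85, SE 0.19, adjusted p = 0.0133). Fcgr3, an immunoglobulin receptor, rose by 1.19 and Mertk, a receptor for apoptotic cells, by 0.46. With 1 library left out the count was 2 to 7, moving by over 1.5 times without control replicates 3 and 4, and the spread of the 8 libraries alone gave 7. Ccl8, a chemokine, was at 693, 539, 428 and 484 FPKM in the control mice and 922, 1295, 1215 and 1109.8 in the DHT mice (log2 difference 1.09, SE 0.23, adjusted p = 0.00876), and Ccl12, another ligand of monocyte receptors, at 16, 5.52, 3.72 and 7.7 FPKM in the control mice and 22.9, 25.8, 68.3 and 44 in the DHT mice (log2 difference 2.20, SE 0.54, adjusted p = 0.0185). Cxcl10, an interferon-induced chemokine, was at 8.97, 7.38, 2.4 and 6.01 FPKM in the control mice and 8.31, 15, 127 and 79.2 in the DHT mice (log2 difference 2.40, SE 0.77, adjusted p = 0.0493), and it was high in DHT replicates 3 and 4 only. Cx3cl1 fell (-0.33, SE 0.10), and the other 36 of 40 chemokines and receptors did not pass. In all 8 fits with 1 library left out, Cd163, F13a1 and Ccl8 passed. Dropping at least 1 of control replicates 1, 2, 3 and 4 and DHT replicates 2, 3 and 4 ended the calls of Mrc1, Fcgr3, Mertk, Ccl12, Cxcl10 and Cx3cl1 (adjusted p up to 0.17). A fit of the 8 libraries by themselves did not call Cxcl10 and Cx3cl1 (adjusted p up to 0.13).

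Complement genes had 4 of 21 that rose and 1 that fell, against 4.23% and 6.56% of all tested genes. Beside C7, given above, the related C6 rose by 0.96 and the scavenger receptor collectin Colec12 by 0.61, while the protease Masp1 fell (-0.36, SE 0.11). The C1q chains, made by macrophages, did not pass (C1qc at log2 difference 0.74, adjusted p = 0.0764). In the interleukin 1 and 6 families 4 of 19 genes rose, all of them receptor chains, namely Il1r1, Il1rap, Il6st and Lifr. Lifr, the leukemia inhibitory factor receptor, was at 6.58, 5.45, 5.5 and 5.9 FPKM in the control mice and 7.6, 12.6, 7.81 and 8.59 in the DHT mice (log2 difference 0.54, SE 0.12, adjusted p = 0.013). Neutrophil markers had the highest median of the cell type marker lists, 1.57, and 1 of 10 rose, Il1r2, a decoy receptor (log2 difference 0.85, SE 0.23, adjusted p = 0.0289). S100a9, which fills neutrophil cytosol, was at 33.3, 11.6, 14.3 and 124 FPKM in the control mice and 140, 36.9, 1569 and 109 in the DHT mice (log2 difference 2.53, adjusted p = 0.0827). Control replicate 4 was inside the range of the DHT mice, and DHT replicate 3 was far above all others. The summed level of the list was 77.9 to 347 FPKM in the control and 159.6 to 3348 FPKM in the DHT mice. Among 14 genes of antigen presentation 12 differences were positive, the median was 0.36 and 0 rose. The 1 that fell was Epcam, an adhesion molecule of Langerhans cells and of follicle epithelium, at 70.6, 71.6, 75.8 and 77.3 FPKM in the control mice and 56.8, 40.7, 42.6 and 49.1 in the DHT mice (log2 difference -0.64, SE 0.14, adjusted p = 0.00933). Of 10 mast cell markers limma and voom called 0 (6 at an unadjusted limma p under 0.05), as of 12 T cell markers (1) and 2 B cell markers (0). Lifr and Epcam stayed called with each of the 8 libraries left out in turn. The calls of C6, Colec12, Masp1, Il1r1, Il1rap, Il6st and Il1r2 ended without at least 1 of control replicates 1, 2, 3 and 4 and DHT replicates 1, 2, 3 and 4 (adjusted p up to 0.13). With the spread taken from these 8 libraries alone, C6, Il1r1, Il1rap, Lifr and Il1r2 did not pass (adjusted p up to 0.14).

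Interferon response genes split the DHT mice. Of 34 tested genes 12 rose and 0 fell, against 4.23% and 6.56% of all tested genes. All 34 differences were positive and the median was 0.92, but in 3 of the 34 the groups did not overlap, against 7.89% of all tested genes. Ifit1, which binds viral RNA, was at 11.3, 4.97, 3.23 and 6.34 FPKM in the control mice and 9.78, 10.4, 67.6 and 40.1 in the DHT mice (log2 difference 1.81, SE 0.50, adjusted p = 0.0298). Ifit3 was at 15.1, 9.1, 5.05 and 7.98 FPKM in the control mice and 10.2, 14.9, 52.7 and 42.2 in the DHT mice (log2 difference 1.39, SE 0.43, adjusted p = 0.0453), and part of its reads may be shared with its near copy Ifit3b. Oas2, an oligoadenylate synthetase, was at 3.19, 2.05, 1.65 and 2.58 FPKM in the control mice and 4.08, 5.06, 11.5 and 7.12 in the DHT mice (log2 difference 1.17, SE 0.24, adjusted p = 0.00775). DHT replicates 3 and 4 carried the high values, while replicates 1 and 2 lay near the upper controls or a little above them. The mean of the list was 0.14, 0.34, 1.98 and 1.44 in DHT replicates 1 to 4, against -0.57 to 0.52 in the control mice. Fits that left out 1 library called 1 to 24, moving by over 1.5 times without control replicates 2, 3 and 4 and DHT replicates 1, 3 and 4, and a fit of the 8 libraries by themselves called 1. The transcription factors Stat2 (0.83, SE 0.23) and Irf9 (0.61, SE 0.19), which carry the interferon signal to these genes, rose, as did the RNA sensors Ifih1 (0.80, SE 0.24) and Ddx58 (0.86, SE 0.25). Of 17 genes of the p200 family and the inflammasome 7 rose, Ifi207 (0.96, SE 0.25) and Ifi208 (1.16, SE 0.32) among them. The count ran from 0 to 12 with 1 library left out, moving by over 1.5 times without control replicates 2, 3 and 4 and DHT replicates 1, 2, 3 and 4, and was 0 with the spread of the 8 libraries alone. In 1 of the 17 the groups did not overlap, against 7.89% of all tested genes that did not overlap and were higher. The mean of this list was 0.20, 0.35, 1.77 and 0.99 in DHT replicates 1 to 4, against -0.43 to 0.41 in the control mice. The p200 genes form a cluster of near copies. Oas2 passed whichever of the 8 libraries was left out. Without at least 1 of control replicates 2, 3 and 4 and DHT replicates 2, 3 and 4 the calls of Ifit1, Ifit3, Stat2, Irf9, Ifih1, Ddx58, Ifi207 and Ifi208 ended (adjusted p up to 0.16). Ifit1, Ifit3, Stat2, Irf9, Ifih1, Ddx58, Ifi207 and Ifi208 did not pass where the 8 libraries alone set the spread (adjusted p up to 0.16).

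The letters before the start of 2 of these genes are shown because both hold the interferon-stimulated response element, to which a complex that holds Stat2 and Irf9 binds. The sequences are from the RefSeq promoter table of build GRCm38.p6, not the build GRCm39 of the expression table, and run 5′ to 3′ on the strand of the gene over the last 150 bases before its start. Capitals mark matches to GAAANNGAA on either strand, which can overlap. Ifit1 is at chr19:34640739-34640888 (plus strand), with 3 matches that begin 109, 103 and 84 bases before the start, and Ifit3 at chr19:34583379-34583528 (plus strand), with 2 that begin 121 and 102 bases before it.

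Ifit1: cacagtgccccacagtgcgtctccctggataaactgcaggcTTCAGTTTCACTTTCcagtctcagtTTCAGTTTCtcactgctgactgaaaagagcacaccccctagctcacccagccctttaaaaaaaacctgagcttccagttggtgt
Ifit3: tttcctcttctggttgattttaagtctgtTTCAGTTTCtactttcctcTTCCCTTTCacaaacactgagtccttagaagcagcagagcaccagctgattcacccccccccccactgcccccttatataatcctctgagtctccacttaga

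Over 250 bases before the start, 804 of the 10418 tested genes with an entry held this element (7.72%). It was in 54 of 438 called higher (12.3%) and in 57 of 672 called lower (8.48%). Of the 12 interferon response genes that rose 11 had an entry and 6 held it, against 17 of 27 tested list genes with an entry. A match is a run of letters and not evidence of binding.

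Of 19 tested genes for antimicrobial proteins 6 rose and 0 fell, against 4.23% and 6.56% of all tested genes, with a median of 0.74. S100a7a, a relative of S100a7l2 that was left out of this list, fell, as given at the end. The rises were S100a7l2, Defb8, Wfdc12 and Pglyrp1, given above, with the cathelicidin Camp (log2 difference 1.12, SE 0.33, adjusted p = 0.0385) and the ribonuclease Rnase4 (log2 difference 0.56, SE 0.16, adjusted p = 0.0305). With 1 library left out the count was 4 to 6, and the spread of the 8 libraries alone gave 3. Of 5 acute-phase genes Saa1, at 3.05, 1.12, 0.942 and 2.7 FPKM in the control mice and 12.8, 5.7, 41 and 10.6 in the DHT mice (log2 difference 2.38, SE 0.59, adjusted p = 0.0191), and Saa2, at 2.66, 2.61, 0.473 and 2.95 FPKM in the control mice and 13, 4.99, 54.9 and 11.4 in the DHT mice (log2 difference 2.39, SE 0.68, adjusted p = 0.0329), rose, and voom called neither. Both serum amyloid genes are near copies, and both were highest in DHT replicate 3. Saa3 was at 764, 101, 158 and 483 FPKM in the control mice and 1569, 180.3, 4024 and 875 in the DHT mice and did not pass (log2 difference 1.84, adjusted p = 0.217). Of 9 genes of the Serpina3 cluster, made of near copies, 5 rose and Serpina3b fell, against 4.23% and 6.56% of all tested genes. Serpina3m was at 6.81, 4.76, 4.45 and 5.83 FPKM in the control mice and 11.9, 21.3, 16.5 and 16 in the DHT mice (log2 difference 1.42, SE 0.29, adjusted p = 0.00764), Serpina3i rose by 1.25, Serpina3n by 1.08 and Serpina3c by 0.82. In the Serpinb cluster of 16 genes Serpinb6a rose by 0.63, while Serpinb5 (maspin) and Serpinb11 fell (-0.48, SE 0.13 and -0.68, SE 0.18) beside Serpinb6d and Serpinb6e. Hamp2, a hepcidin gene, was at 0.913, 1.23, 1.8 and 3.45 FPKM in the control mice and 0, 0, 0 and 0 in the DHT mice (log2 difference -1.43, SE 0.21, adjusted p = 0.00159). Steap4, a metalloreductase, rose by 0.90 and Slc40a1, the iron exporter ferroportin, fell (-0.77, SE 0.20). In all 8 fits with 1 library left out, Serpina3m, Serpina3i and Hamp2 passed. Dropping at least 1 of control replicates 1, 2, 3 and 4 and DHT replicates 2, 3 and 4 ended the calls of Camp, Rnase4, Saa1, Saa2, Serpina3n, Serpina3c, Serpinb6a, Serpinb5, Serpinb11, Steap4 and Slc40a1 (adjusted p up to 0.13). A fit of the 8 libraries by themselves did not call Camp, Rnase4, Saa2, Serpina3c, Serpinb5 and Slc40a1 (adjusted p up to 0.084).

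Of 24 genes of lysosomal proteases and their inhibitors 6 rose, against 4.23% of all tested genes. Beside Ctla2a these were its near copy Ctla2b (log2 difference 0.75, SE 0.23, adjusted p = 0.0438), the legumain gene Lgmn (log2 difference 0.96, SE 0.29, adjusted p = 0.039) and the cathepsins Ctsk (log2 difference 1.08, SE 0.31, adjusted p = 0.0342), Ctsh (0.59) and Ctso (0.45), while Ctse fell (-0.69). Fits that left out 1 library called 1 to 9, moving by over 1.5 times without control replicates 2, 3 and 4 and DHT replicates 2, 3 and 4, and a fit of the 8 libraries by themselves called 4. Ctla2a was the only one of the 16 largest rises with a promoter entry that held the core of the element bound by several steroid receptors, and 0 of 18 such falls held it. Its letters are shown for this reason, over 250 bases before the start on the minus strand of chr13:60936626-60936875 (RefSeq table, GRCm38.p6), with the match to ACANNNTGT, which reads the same on both strands, in capitals 177 bases before the start.

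Ctla2a: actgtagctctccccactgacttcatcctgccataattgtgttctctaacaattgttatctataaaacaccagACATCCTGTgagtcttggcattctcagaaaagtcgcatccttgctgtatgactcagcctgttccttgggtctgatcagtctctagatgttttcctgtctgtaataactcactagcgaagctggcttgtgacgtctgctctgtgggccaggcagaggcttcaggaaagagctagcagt

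Over all tested genes with an entry 471 of 10418 held this core (4.52%), with 37 of 438 among those called higher (8.45%) and 30 of 672 among those called lower (4.46%). The matches describe letters, and binding of a receptor was not measured. Ctla2a stayed called with each of the 8 libraries left out in turn. The calls of Ctla2b, Lgmn, Ctsk, Ctsh, Ctso and Ctse ended without at least 1 of control replicates 2, 3 and 4 and DHT replicates 2, 3 and 4 (adjusted p up to 0.13). With the spread taken from these 8 libraries alone, Lgmn, Ctsk, Ctso and Ctse did not pass (adjusted p up to 0.095).

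Of 22 genes for receptors and steroid enzymes 4 rose and 3 fell, against 4.23% and 6.56% of all tested genes, and the median was -0.10. Hsd11b1, which regenerates active glucocorticoid, was at 18.4, 22.2, 13.6 and 17.7 FPKM in the control mice and 35.3, 39.5, 38.1 and 28 in the DHT mice (log2 difference 0.94, SE 0.21, adjusted p = 0.0126). Hsd17b11 (0.67, SE 0.21) and Hsd3b7 (0.37, SE 0.11), dehydrogenases of steroids and sterols, and Sult1e1 rose. Srd5a1, a 5-alpha reductase that makes DHT, was at 10.3, 10.5, 10.4 and 10.6 FPKM in the control mice and 9.08, 7.07, 6.53 and 8.78 in the DHT mice (log2 difference -0.38, SE 0.10, adjusted p = 0.0248). Star, which brings cholesterol into mitochondria, fell (-0.67, SE 0.20) and Akr1c18 as given above. Of 16 known targets of steroid receptors Fkbp5, a cochaperone induced by androgen and glucocorticoid, was at 36, 31.9, 24.7 and 32.1 FPKM in the control mice and 48.5, 81.8, 41.6 and 49.6 in the DHT mice (log2 difference 0.77, SE 0.24, adjusted p = 0.0466), and Mt1 (a metallothionein) and Cebpd rose by 0.74 and 0.79. Acpp, prostatic acid phosphatase, fell (-0.51, SE 0.13), and Tmprss2, an androgen target of the prostate, was lower without passing (log2 difference -0.59, adjusted p = 0.0596). No single library, left out, ended the call of Hsd11b1. Hsd17b11, Hsd3b7, Srd5a1, Star, Fkbp5, Mt1, Cebpd and Acpp did not pass without at least 1 of control replicates 1, 2, 3 and 4 and DHT replicates 2, 3 and 4 (adjusted p up to 0.15). Hsd3b7, Srd5a1, Fkbp5, Mt1 and Acpp did not pass where the 8 libraries alone set the spread (adjusted p up to 0.092).

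Of 27 genes of cholesterol synthesis 6 fell and 0 rose, against 6.56% and 4.23% of all tested genes, with a median of -0.24. Among the falls beside Idi2 were Fdps, Mvd and Nsdhl, enzymes of the pathway, with log2 differences of -0.27, -0.30 and -0.26. The count ran from 2 to 12 with 1 library left out, moving by over 1.5 times without control replicates 3 and 4 and DHT replicates 1, 2, 3 and 4, and was 2 with the spread of the 8 libraries alone. With a common total per library the count was 2. Among 22 sebaceous genes Acsbg1, an acyl-CoA synthetase, fell (log2 difference -0.77, SE 0.18, adjusted p = 0.0161) and Gal rose, and Scd1, a desaturase of the gland and of fat, did not pass (log2 difference -0.69, adjusted p = 0.0578). Of 19 retinoid genes the binding protein Crabp2, at 58.9, 55.4, 69.5 and 70.5 FPKM in the control mice and 42.6, 35.9, 33.4 and 35.2 in the DHT mice (log2 difference -0.77, SE 0.15, adjusted p = 0.00701), the transporter Stra6 (-0.81) and the receptor Rarg (-0.32) fell, while Aldh1a1, which makes retinoic acid, rose (0.74). Of 20 lipoxygenase and prostaglandin genes Alox12 (-0.74) and Alox12e (-0.85) fell and Hpgds, a prostaglandin D synthase, rose (0.54). Of 31 cytochrome P450 genes Cyp7b1 and Cyp2b23 (log2 difference 1.21, SE 0.32, adjusted p = 0.0236) rose. In all 8 fits with 1 library left out, Crabp2 passed. Dropping at least 1 of control replicates 1, 2, 3 and 4 and DHT replicates 2, 3 and 4 ended the calls of Fdps, Mvd, Nsdhl, Acsbg1, Stra6, Rarg, Aldh1a1, Alox12, Alox12e, Hpgds and Cyp2b23 (adjusted p up to 0.17). A fit of the 8 libraries by themselves did not call Fdps, Mvd, Nsdhl, Acsbg1, Rarg, Aldh1a1 and Alox12e (adjusted p up to 0.16).

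Housekeeping and stress programs were called in single genes, beside 10.8% of all tested genes. Of 95 genes of oxidative phosphorylation Cox6a1 fell (log2 difference -0.29, SE 0.07, adjusted p = 0.0142) and of 81 ribosomal protein genes Rpl27 fell (log2 difference -0.30, SE 0.09, adjusted p = 0.0418), with medians of -0.05 and -0.07, the second of which changed sign under other scalings. Limma and voom called 0 of 30 cell cycle genes (median -0.13, 4 at an unadjusted limma p under 0.05), 0 of 22 immediate early genes (4), 0 of 17 clock genes (4) and 0 of 22 glutathione transferases (2). Of 22 genes of endoplasmic reticulum stress Chac1, a glutathione-degrading enzyme, fell (log2 difference -1.16, SE 0.21, adjusted p = 0.00515) and the chaperone partners Sdf2l1 (0.55) and Dnajb9 (0.28) rose. Of 17 targets of the oxidative stress factor NRF2, G6pdx (-0.35), Taldo1 (-0.21) and Me1 (-0.49), enzymes that make NADPH or feed the pentose pathway, fell. Cox6a1 and Chac1 stayed called with each of the 8 libraries left out in turn. The calls of Rpl27, Sdf2l1, Dnajb9, G6pdx, Taldo1 and Me1 ended without at least 1 of control replicates 1, 2, 3 and 4 and DHT replicates 2, 3 and 4 (adjusted p up to 0.12). With the spread taken from these 8 libraries alone, Rpl27, Dnajb9, G6pdx, Taldo1 and Me1 did not pass (adjusted p up to 0.11).

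Markers of other tissues in the skin samples varied between single mice. Of 16 adipocyte markers limma and voom called 0 (2 at an unadjusted limma p under 0.05), and the list mean was -0.32, 0.76, -1.03 and -0.16 in DHT replicates 1 to 4, against -0.22 to 0.22 in the control mice. Lep, the fat hormone leptin, was at 22.1, 20.4, 11.9 and 13.2 FPKM in the control mice and 8.57, 10.5, 2.36 and 8.01 in the DHT mice (log2 difference -1.19, adjusted p = 0.107). Of 25 skeletal muscle markers Actn2 rose (log2 difference 0.81, SE 0.20, adjusted p = 0.0192), and the list mean was -0.17, 0.98, 0.17 and 0.00 in DHT replicates 1 to 4, high in replicate 2 alone. All 14 melanocyte markers had negative differences and limma and voom called 0 (4 at an unadjusted limma p under 0.05), with a list mean of 0.05, -0.70, -0.45 and -0.01 in DHT replicates 1 to 4. Of 9 erythroid genes 7 had positive differences, with a median of 0.57, and the list summed to 244 to 263 FPKM in the control and 347 to 643 FPKM in the DHT mice. Its mean overlapped between the groups, at 0.24, 0.31, 0.58 and 0.04 in DHT replicates 1 to 4, against -0.03 to 0.07 in the control mice. In this list 1 gene rose and 2 fell, against 4.23% and 6.56% of all tested genes. The falls, against the direction of most of the list, were Ahsp, a chaperone of alpha-hemoglobin, at 18.8, 16.6, 16.1 and 19.6 FPKM in the control mice and 10.3, 8.1, 6.55 and 7.68 in the DHT mice (log2 difference -1.05, SE 0.24, adjusted p = 0.013), and Slc4a1 (-0.70). Of 9 mammary and simple epithelial genes the casein Csn3 (log2 difference -0.84, SE 0.18, adjusted p = 0.00909) and the transcription factor Elf5 (-0.69) fell. The kidney markers Umod, Slc34a1 and Kap were at or near 0 in both groups at day 15. The part of fat and muscle content in the differences given above was not tested. Ahsp and Csn3 passed whichever of the 8 libraries was left out. Without at least 1 of control replicates 2, 3 and 4 and DHT replicates 2 and 3 the calls of Actn2, Slc4a1 and Elf5 ended (adjusted p up to 0.087). Elf5 did not pass where the 8 libraries alone set the spread (adjusted p = 0.067).

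DHT and control mice were also taken at day 10, as separate mice, so the group means of both comparisons share no library. The spread of each gene comes from the same fit to all 24 libraries, so the calls of both days are not independent. At day 10, 1803 genes were called (13.8%), 885 higher (6.79%) and 918 lower (7.04%) in DHT skin. Of the 552 genes that rose at day 15, 291 also rose at day 10, which is 52.7% of the day 15 rises and 32.9% of the day 10 rises. Of the 856 falls 473 also fell, 55.3% and 51.5% of each list. Among the 1408 genes called at day 15, 98.5% had the same sign at day 10, against 80.2% of all tested genes, and 1 was called in opposite directions. Libraries of both groups at day 10 held kidney transcripts that were at or near 0 at day 15. Kap was at 21.7 ± 1.64 FPKM in the control and 16.4 ± 2.81 FPKM in the DHT mice at day 10 (SD, n = 4), and Umod at 1.80 ± 0.18 and 1.29 ± 0.272 FPKM. All 3 tested kidney genes were called lower in DHT skin at day 10, and the part of this signal in the values of day 10 and in the change between days was not tested. S100a7l2 and Defb8 differed by 6.43 and 5.69 at day 10 against 3.84 and 2.92 at day 15. Hamp2 differed by -2.53 against -1.43, Grem1 by 0.65 against 1.61, Idi2 by -0.53 against -2.34, and Akr1c18 by -0.17 against -1.23. The median of the complement list was 1.20 at day 10, with 16 of 21 genes that rose, against 0.60 and 4 at day 15. That of hair shaft keratins was -1.16 with 12 falls, against -0.60 and 3. Macrophage markers had a median of 1.21 and 15 rises, against 0.76 and 6. Keratin-associated proteins had -0.91 with 33 falls, against -0.96 and 28.

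These pairs of values do not show a change by themselves. The test of the change between days, by limma over the same 13039 genes, called 0 genes, with 352 at an unadjusted p under 0.05, and voom also called 0. The smallest adjusted p was 0.0632, for Rfx2, a transcription factor of ciliated cells, with -0.88 at day 15 and 0.61 at day 10. It was at 7.32, 4.84, 5.47 and 7.36 FPKM in the control mice and 2.69, 3.64, 2.25 and 3.13 in the DHT mice at day 15, and this fall was called (log2 difference -0.88, SE 0.17, adjusted p = 0.00648). Klf16, a zinc finger factor, had -0.53 and 0.19 (adjusted p of the change = 0.0885). The count of the change was 3 without DHT replicate 2 and 1 without control replicate 2 or DHT replicate 1. It was 0 without each of the other libraries of day 15. Array weights, which count noisy libraries less, gave 66. The weights were 0.915, 0.295, 0.249 and 5.81 for DHT replicates 1 to 4 of day 15, so the weighted DHT mean rested mostly on replicate 4.

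**Figure D4:**
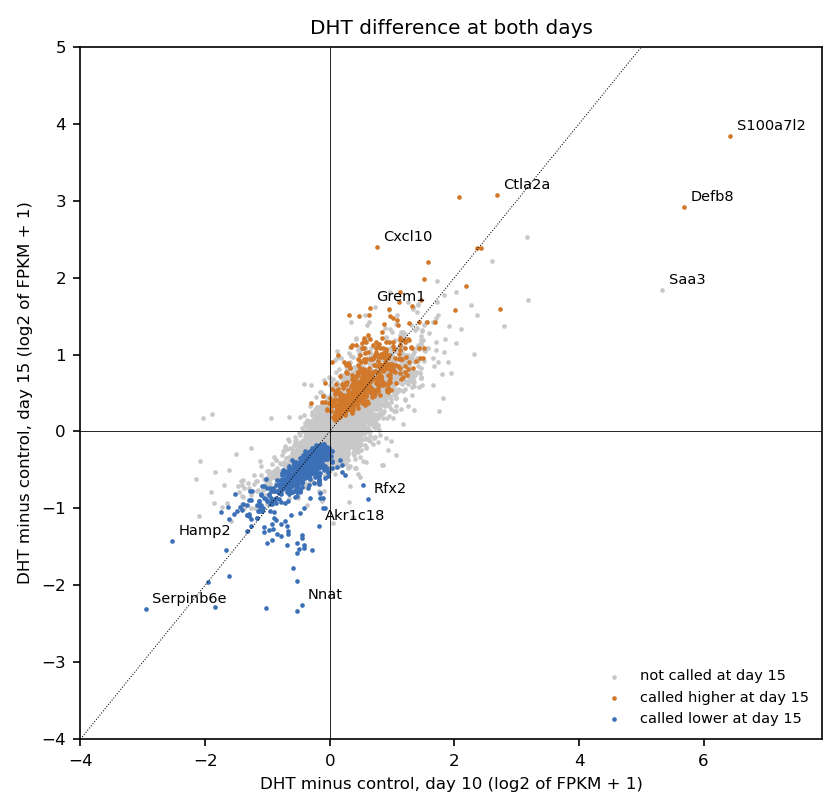
Each point is 1 of the 13039 tested genes, with DHT minus control in log2(FPKM + 1) at day 10 on the horizontal axis and at day 15 on the vertical axis. Genes called at day 15 are orange (552 higher) and blue (856 lower), and the dotted line marks equal differences. S100a7l2, Defb8 and Saa3 lie below the line, and Rfx2 is lower at day 15 and higher at day 10.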

How the data were processed

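Poly(A) RNA of mouse skin was measured in 24 libraries of 6 groups, grouped by sample titles. Per the labels' protocols, RNA was extracted with TRIzol and libraries were made with a VAHTS Universal V6 kit. Per the submitters' processing notes, the authors used fastp, HISAT2 and HTSeq with genome build GRCm39. Versions, the annotation release, the strand setting and the treatment of reads that match several genes are not given in the sources used here. The deposited table holds FPKM per gene symbol as the authors computed it, and no further scaling was applied.

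Values were taken as log2(FPKM + 1) after the filter on low values (5853 genes left out), and 1 mean per group was fitted to the 24 libraries with limma 3.58.1 (R 4.3.3, functions lmFit and contrasts.fit, then eBayes with a robust fit of the variance trend), which left 18 residual degrees of freedom. Tests were two-sided. The pseudocount shrinks differences of low genes. Whole reads, recovered from the steps of the FPKM values for 18210 of 18715 genes (97.3%, within 0.01 of a read, or 0.05 from 1000 reads up), served for voom. Each library is 1 mouse, and p-values measure the spread between mice.

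Genes named are the 20 largest called rises and falls (2 FPKM or more as the mean of the higher group, no overlap, no unnamed gene models), called members of 67 gene lists with some that did not pass, and the smallest p-values of the change between days. The members and lists were chosen with earlier results of these data known, so no list count is an independent test. Alternatives were other pseudocounts, filters, scalings and weights, a fit of the groups compared, the replicate number as a block, voom and each library left out. The third group, given DHT and the plant formula, entered the fit and is not described. Some genes are not reported here.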

Additional observations from a re-analysis of the deposited data

Results flagged for a closer look

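In the 20 largest rises and falls, and in the means of the gene lists with at least 5 tested members, 1 of the 4 mice of a group can stand apart, which was measured as its gap to the nearest mouse divided by the range of the group. The limit was the 95% critical value of Dixon's test for 4 values, which chance passes in about 1 of 20 groups, and 16 of 204 groups passed.

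Among genes, Saa2 (0.909) was low in control replicate 3, and C7 (0.83) in control replicate 1. Gal (0.981) was low in DHT replicate 3, and Sprr2h (0.841) was high there. Lce3c (0.862) was high in control replicate 4. Krtap2-4 (0.833), Krtap3-2 (0.964) and Akr1c18 (0.91) were low in control replicate 3. The naming rule admitted only genes without overlap, so in these genes every control mouse was outside the range of the DHT mice by selection.

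Among list means, the Serpinb cluster (0.872) was low in DHT replicate 1, and ribosomal proteins (0.86) and epidermal differentiation (0.85) were low in DHT replicate 3. In the control mice, epidermal differentiation (0.964) was high in replicate 3, and dermal fibroblasts (0.908) and mast cells (0.894) were high in replicate 1. The basal layer (0.844) was low in control replicate 2, and mammary and simple epithelium (0.833) in control replicate 1. DHT replicate 3 also stood apart on the first principal component, and its part in these values was not tested.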

How the results depend on the processing

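The count of 1408 called genes (552 higher, 856 lower) stayed within 1.5 times under a pseudocount of 0.1, no filter, a mean of at least 5 FPKM, median-of-ratios scaling, quantile normalization, voom and the block, from 1051 (no filter) to 1460 (quantile). With a common total per library 473 were lower and 743 higher. With only the groups compared the counts were 724, 317 and 407, and with array weights 4592, 2471 and 2121. The weight of DHT replicate 4 was 5.81, against 0.249 to 0.915 in the other DHT mice of day 15, so the weighted counts rest mostly on 1 DHT mouse. With 1 library left out the counts ran from 363 to 2240, from 132 to 828 and from 231 to 1412. Without both DHT replicates 2 and 3, a choice made after seeing the data, they were 12, 3 and 9. For the change between days the count was 0, 66 with array weights and 0 to 3 with 1 library left out. The causes were not tested, though each fit with a library left out rests on fewer mice. Replicate numbers did not pair the mice across groups: deviations of same-numbered control and DHT mice correlated at -0.44, 0.18, -0.63 and -0.18. With the replicate number as a block 1451 genes were called (530 higher, 921 lower), 1295 of them also called without it, and 0 for the change. Of 291 genes under the naming rule or named beside it 267 were called. Of these 158 were not called without control replicate 4, the highest such number among the libraries, 6 without DHT replicate 1, 112 with only the groups compared, 66 with no filter, 33 with a common total and 14 with voom. No called gene among them changed sign in these alternatives, though leaving out a mouse cannot change the sign where the groups do not overlap. Recovered depth was close to equal between libraries.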

Other observations

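Genes outside the lists were also called in all 8 fits that left out a library, and those below were chosen after their values were seen. Ace, the angiotensin-converting enzyme, was at 31.4, 37.1, 33.7 and 36.2 FPKM in the control mice and 67.8, 146, 94.7 and 86.8 in the DHT mice (log2 difference 1.43, SE 0.28, adjusted p = 0.00642). Gas6, a ligand of the receptors that clear apoptotic cells, was at 89.4, 85.3, 104 and 88.8 FPKM in the control mice and 146, 284, 158 and 183 in the DHT mice (log2 difference 1.01, SE 0.21, adjusted p = 0.00848), and Selenop, the plasma carrier of selenium, at 701, 661, 577 and 563 FPKM in the control mice and 1200.2, 1431, 886 and 1117 in the DHT mice (log2 difference 0.87, SE 0.19, adjusted p = 0.0102). All 3 were highest in DHT replicate 2. Gap43, a protein of growing nerve endings, was at 0.99, 0.76, 0.52 and 0.565 FPKM in the control mice and 3.18, 3.97, 3.63 and 3.25 in the DHT mice (log2 difference 1.40, SE 0.20, adjusted p = 0.00139). Its DHT mice lay close together, and the lowest of them was well above the highest control. Il15, a cytokine for lymphocytes, was at 1.33, 1.22, 1.21 and 1.24 FPKM in the control mice and 1.73, 2.45, 6.78 and 3.35 in the DHT mice, and its receptor chain Il15ra at 3.33, 2.85, 2.24 and 2.54 FPKM in the control mice and 4.78, 5.58, 8.68 and 6.74 in the DHT mice. Both were highest in DHT replicate 3, with log2 differences of 0.91 and 0.97. Il15 did not pass with only the 8 libraries (adjusted p = 0.0876).

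Among falls, Crym, a binding protein of thyroid hormone, was at 292, 341, 343 and 364 FPKM in the control mice and 228, 136, 159 and 188 in the DHT mice (log2 difference -0.93, SE 0.20, adjusted p = 0.0114). Prr9, a proline-rich protein, was at 2796, 2936, 2872 and 3369.9 FPKM in the control mice and 2156, 1277, 1507 and 1650.1 in the DHT mice (log2 difference -0.88, SE 0.19, adjusted p = 0.0117), and Gsdma, a gasdermin of skin, at 82.9, 87.9, 93.2 and 94 FPKM in the control mice and 71.9, 39.4, 48.1 and 59.1 in the DHT mice (log2 difference -0.73, SE 0.14, adjusted p = 0.00543). Cnfn, cornifelin of the cornified envelope, was at 179, 193, 179 and 194 FPKM in the control mice and 142, 73.7, 88.4 and 105 in the DHT mice (log2 difference -0.90, SE 0.15, adjusted p = 0.00354), and Gpx2, a glutathione peroxidase, at 14.1, 15.2, 13.5 and 15.4 FPKM in the control mice and 10.6, 5.7, 5.51 and 6.98 in the DHT mice (log2 difference -0.96, SE 0.21, adjusted p = 0.0125). In all 5 genes the DHT mice were below every control mouse and replicate 1 was nearest to the controls. S100a7a was at 40.7, 44.5, 39.4 and 48.4 FPKM in the control mice and 33.5, 16.9, 21.2 and 22.1 in the DHT mice (log2 difference -0.89, SE 0.19, adjusted p = 0.00987) and fell, where its relative S100a7l2 rose.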
